A study of Mus musculus with 4 samples.

Results

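Sonic hedgehog (Shh) and Lmbr1 lie on mouse chromosome 5 in one long stretch, and both genes were read here from ATAC-seq peak lists of limb cells. ATAC-seq uses the Tn5 transposase to cut and tag open chromatin, and a peak summit marks where cuts piled up most. The 2 genes were taken by name out of 22238 protein-coding genes, together with the interval from 100 kb beyond Shh to 100 kb beyond Lmbr1, which held 21 of 74669 accessible regions found in the series. Genes and interval were set by name and distance and not by a measured value, although earlier results of these data were known. The labels describe forelimbs and hindlimbs of mouse embryos at stage E11.5, of the strain given as c57bl6.J X 129S6.sv, with cells fixed in PFA before transposition. All libraries share these features. The mutant group carried a stop cassette insertion (2 libraries) and the control group was wild type (2 libraries). The cassette's position is not in the labels, nor is whether embryos carried it on one or both copies, or how many embryos made up a library.

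Shh is the signal secreted by the zone of polarizing activity, a small group of cells at the posterior edge of the limb bud, and it patterns the digits from thumb to little finger and drives growth of the bud. Its expression in the limb depends on the ZRS, an enhancer that lies far away inside an intron of the neighbouring gene Lmbr1, a broadly expressed gene for a membrane protein. Single-base changes in the ZRS are known to cause extra digits, and its loss truncates the limb. In bulk tissue, fewer cells with an open site and less accessibility per cell cannot be told apart.

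In the annotation (GENCODE M1, mm9), Shh (ENSMUSG00000002633.3) runs from 28783355 to 28793641 of chromosome 5 on the minus strand. Lmbr1 (ENSMUSG00000010721.8) runs from 29556354 to 29704930, also on the minus strand, and its longer transcript has 17 exons. A gap of 763 kb separates the genes, and their starts lie 911 kb apart. The ZRS is known to lie in intron 5 of Lmbr1 (29619490 to 29650341). The annotation does not record the enhancer's borders, so summits were placed by intron and not by enhancer.

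The sequences below show the places on which the results turn, each on the minus strand (the strand of both genes) of the mm9 assembly, 5′ to 3′. The first is the stretch of intron 5 around the region called in all 4 lists (chr5:29641136-29641435). Capitals mark the E-box CATNTG, a form of the site that basic helix-loop-helix factors such as Hand2 and Twist1 bind.
Lmbr1 intron 5, all lists: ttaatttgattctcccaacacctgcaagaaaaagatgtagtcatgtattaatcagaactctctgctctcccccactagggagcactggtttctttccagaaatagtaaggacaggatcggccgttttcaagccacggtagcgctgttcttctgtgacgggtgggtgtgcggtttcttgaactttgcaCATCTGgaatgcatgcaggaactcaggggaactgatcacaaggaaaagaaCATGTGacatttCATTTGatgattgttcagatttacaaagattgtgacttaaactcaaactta
The stretch held 3 such E-boxes, with either strand counted and no overlap among them. Among regions beyond 1 kb of any transcript start, 56.8% of windows of 300 bp held at least 1. It was 42.7% G or C, against a median of 48.7% in those windows. GGAAG, a longer form of the core GGAA that ETS factors bind, was absent from the stretch, and 66.4% of the windows held it. The shorter GGAA was not searched for, and the printed stretch does hold it. The site CAATAAA of Hox13 factors and the site AGATAA of GATA factors were not in it either, and 7.07% and 15.3% of the windows held them.

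The next pair shows the 250 bp before the start of each gene, Shh at chr5:28793642-28793891 and Lmbr1 at chr5:29704931-29705180, with each CG pair in capitals, because these starts differed in how often they were called.
Shh, before the start: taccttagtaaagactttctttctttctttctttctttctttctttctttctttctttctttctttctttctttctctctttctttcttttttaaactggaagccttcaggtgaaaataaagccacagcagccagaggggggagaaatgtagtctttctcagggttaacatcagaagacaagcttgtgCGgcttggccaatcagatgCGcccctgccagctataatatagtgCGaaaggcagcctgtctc
Lmbr1, before the start: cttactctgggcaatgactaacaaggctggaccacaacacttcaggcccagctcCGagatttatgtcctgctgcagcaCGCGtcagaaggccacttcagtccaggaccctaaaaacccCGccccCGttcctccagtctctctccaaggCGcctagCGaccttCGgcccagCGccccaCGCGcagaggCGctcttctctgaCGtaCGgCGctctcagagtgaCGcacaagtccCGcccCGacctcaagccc
The Lmbr1 stretch held 18 CG pairs and was 62.0% G or C. The Shh stretch held 3 CG pairs and was 41.2% G or C, with a run of repeated tttc. The ratio of observed to expected CG pairs was 0.812 before Lmbr1 and 0.287 before Shh, against a median of 0.496 over the same stretch before 22362 protein-coding gene identifiers (some share a name). The low ratio before Shh did not extend into the gene. The 300 bp around the summit called in exon 1 of Shh held 26 CG pairs, with a ratio of 0.861. A window of 300 bp in intron 1 of Shh held 33, with a ratio of 0.870. The 300 bp across the Lmbr1 start held 33, with a ratio of 1.01. Whether CG content bears on the calls was not tested.

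Each peak carries a score, read here as −log10 of a q-value. Scores depend on the depth and background of their own library, so each was turned into a percentile within its list, from the weakest peak near 0 to the strongest near 100. The lists held 79083 and 107827 summits in stop cassette replicates 1 and 2, and 51701 and 68471 in wild-type replicates 1 and 2. They carry no read counts, and the depth is unknown. The limb label was checked on the starts of 10 limb mesenchyme genes, of which 9 had a summit within 1 kb in stop cassette replicates 1 and 2 and in wild-type replicate 2, and 7 in wild-type replicate 1. Over all protein-coding genes the shares were 61.7% and 64.6% in stop cassette replicates 1 and 2 and 59.2% and 61.7% in wild-type replicates 1 and 2, so the count of wild-type replicate 1 was near its background. None of 3 liver genes had one in any list. Tbx5, which marks the forelimb, had none in any list.

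The start of Lmbr1 was among the open places of every list. Its strongest summit had a score of 24.4 in stop cassette replicate 1, 21.8 in stop cassette replicate 2, 12.9 in wild-type replicate 1 and 17.6 in wild-type replicate 2. These scores stood at the 91.0, 92.7, 87.3 and 92.4 percentiles of their lists. All 4 libraries were high, and the genotypes overlapped, since wild-type replicate 2 lay between the stop cassette libraries. The stop cassette libraries averaged 91.9 ± 1.24 and the wild-type libraries 89.9 ± 3.59 (SD over 2 libraries; exact permutation test, two-sided, p = 0.667). The difference of 2.0 percentile points was smaller than the spread between the wild-type libraries, and it was -3.10 when all lists were reduced to the same length. Both wild-type libraries then stood above both stop cassette libraries, at the 87.3 and 89.9 percentiles against 86.2 and 84.9 (exact permutation p = 0.33, the smallest that 2 against 2 libraries allow). Removing the weakest summits lowers percentiles in the longer lists and leaves wild-type replicate 1, the shortest, as it was. List length therefore enters this order by construction.

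Summits at the Lmbr1 start were clustered. The strongest lay 2 bp downstream of the annotated start in stop cassette replicate 1, and 32 and 17 bp downstream in wild-type replicates 1 and 2. In stop cassette replicate 2 it lay 93 bp upstream. Each list also had a summit 524 to 616 bp upstream. There were 13 summits in all, merged into one region of 1601 bp (29704196 to 29705796). The lincRNA 4632411P08Rik starts at 29705239 and runs the other way, so the strongest summit lay within 1 kb of both starts and cannot be assigned to one of them.

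**Figure D1:**
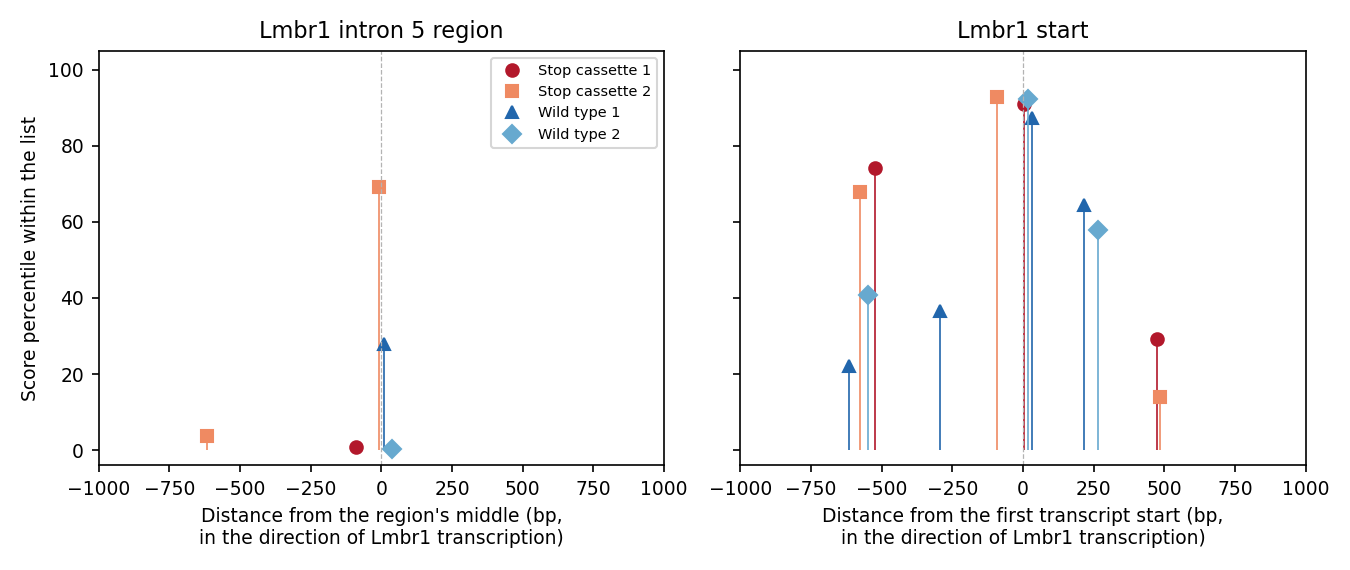
Score percentile (vertical axis) against distance in bp (horizontal axis, in the direction of Lmbr1 transcription) for every summit within 1 kb of the middle of the intron 5 region called in all lists (left) and of the Lmbr1 start (right), 1 point per summit, coloured by library. At the Lmbr1 start the strongest summits of the 4 lists stand between the 87.3 and 92.7 percentiles, whereas in intron 5 they spread from the 0.341 to the 69.3 percentile.

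Among genes with a called start, Lmbr1 was in the middle. Its start was stronger than 53.7% and 50.7% of the called starts in stop cassette replicates 1 and 2, and than 54.7% and 63.5% in wild-type replicates 1 and 2. A start was called in all lists for 57.6% of protein-coding genes. The genes whose start percentiles were closest to those of Lmbr1 over the 4 libraries were Cdc14a, Psmb3 and Prkab1, at Euclidean distances of 1.02, 1.09 and 1.25 percentile points.

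The start of Shh was called in one library alone. Stop cassette replicate 2 had a summit at 28793416, 225 bp downstream of the start and inside exon 1, with a score of 4.39 at the 28.5 percentile of its list. The other 3 lists had no summit within 1 kb. The summit lay 108 bp from an annotated start of 9530036O11Rik, a lincRNA that runs the other way across Shh, and within 1 kb of the start of the lincRNA Gm17493. It was weak for a start: only 3.08% of the called starts of that list were weaker. Stop cassette replicate 2 is the longest list, and it had the highest share of protein-coding genes with a called start. A start called in stop cassette replicate 2 alone was found for 369 genes, or 1.66%. The nearest to Shh in this pattern were Slc4a5, Fam155a and Sim2, at distances of 0.0937, 0.0983 and 0.0983 percentile points over the 4 libraries, a likeness that rests on the value of 1 library. The calls at the Shh start were not tested between the genotypes.

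Around Shh, weak summits were found mainly in the replicate 2 lists. Inside intron 1 of Shh, a region from 28790946 to 28791694 was held by stop cassette replicate 2 at the 3.54 percentile and by wild-type replicate 2 at the 27.2 percentile. The same pair of lists held a region 2582 bp before the Shh start (28795902 to 28796594), at the 27.6 and 30.5 percentiles. Wild-type replicate 1 had a single summit in intron 2 of Shh, at the 1.65 percentile. Stop cassette replicate 1 had none inside the gene or before it. The replicate 2 lists are the longer list of each genotype. Across the genome, 6.57% of regions were held by this pair of lists alone, against 3 of the 21 regions of the whole interval (14.3%). The region of these not named above (29798313 to 29799271) lay 1005 kb from the Shh start, nearest to the start of Mnx1.

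A single region of the interval was held by both stop cassette lists and by neither wild-type list. It lay 5440 bp past the 3′ end of Shh, in intergenic sequence from 28777619 to 28778234. The percentile was 21.6 in stop cassette replicate 1 and 75.7 in replicate 2. This was 1 of 21 regions, where 10% of all regions had this pattern, so the share here was not above the background. No region of the interval had the opposite pattern, that of 0.313% of all regions. When lists had the same length, stop cassette replicate 1 no longer held the region past Shh, and none was then specific to the stop cassette. The stretch of 300 bp at this place (chr5:28777765-28778064, minus strand, mm9) is shown because it was the one place where the lists divided by genotype, with the single match to the core motif of the insulator protein CTCF in capitals.
Past the end of Shh: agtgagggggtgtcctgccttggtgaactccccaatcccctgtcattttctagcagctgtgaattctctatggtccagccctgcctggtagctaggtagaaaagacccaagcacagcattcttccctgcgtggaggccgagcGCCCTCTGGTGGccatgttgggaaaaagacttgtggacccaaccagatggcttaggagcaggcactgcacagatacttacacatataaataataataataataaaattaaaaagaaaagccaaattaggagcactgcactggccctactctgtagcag
Either strand was searched, and 7.004% of the windows beyond 1 kb of any start held a match. The stretch of intron 5 shown above did not. A region inside Rbm33 that stop cassette replicate 2 alone held had a match too, so the motif was not particular to the place past Shh. The form of the motif was changed once after a first search.

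Beyond 1 kb of the Lmbr1 start, intron 5 was the one intron of the gene in which any list had a summit. It makes up 21.5% of the gene's intron length, and it held all 4 intronic regions, while the other 15 introns held none outside that distance. Closer to the start, stop cassette replicates 1 and 2 and wild-type replicate 2 each had a summit at the beginning of intron 1, which was counted with the start. No summit fell in an exon of Lmbr1 beyond the reach of the start.

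One region of intron 5 was called in all 4 lists (29640998 to 29641625). Its middle lay 848 kb from the Shh start, 63.6 kb downstream of the Lmbr1 start and 9.06 kb from exon 5. The score was 1.70 in stop cassette replicate 1, 8.97 in stop cassette replicate 2, 3.91 in wild-type replicate 1 and 1.57 in wild-type replicate 2. The percentiles were 0.867, 69.3, 27.8 and 0.341. The lowest score of any list was 1.302, so 2 of the 4 libraries, one of each genotype, had this region barely above the limit for calling a peak. The summits fell within 127 bp of each other although their strength differed.

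Percentiles of the intron 5 region overlapped between the genotypes, and the SD over the stop cassette libraries was larger than the difference between the means. Stop cassette libraries averaged 35.1 ± 48.4 and wild-type libraries 14.1 ± 19.4 (SD over 2 libraries; exact permutation test, p = 0.667). Leaving out stop cassette replicate 2 changed the difference from 21.0 to -13.2 percentile points. Set against the intronic summits beyond 1 kb of any start in the same list, the region was stronger than 80.7% in stop cassette replicate 2 and 40.1% in wild-type replicate 1. In stop cassette replicate 1 and wild-type replicate 2 it was stronger than 0.703% and 0.448%. At the same list length, it was called in stop cassette replicate 2 and wild-type replicate 1, 1 library of each genotype.

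A second region of intron 5, apart from the first, had a score of 6.27 in stop cassette replicate 1, 8.12 in stop cassette replicate 2 and 3.04 in wild-type replicate 1, and no summit in wild-type replicate 2. The percentiles were 49.1, 65.3 and 15.97, so the stop cassette libraries were the higher ones. The 3 summits fell within 12 bp of each other. The percentiles were not tested, as wild-type replicate 2 had none. The same 3 lists held the region at equal list length, at the 22.1, 27.5 and 15.97 percentiles. With scores above 5.83, the stop cassette lists alone held it, at the 7.76 and 31.3 percentiles. That limit is the median score of all lists pooled. The stop cassette lists had the higher medians, 6.27 and 5.93 against 5.24 and 5.70 in wild type, and more of their summits pass it. The share of all regions with this pattern at that limit is not given, so the pattern cannot be read as particular to this region. Across the genome 2.19% of regions were held by these 3 lists and missing from wild-type replicate 2.

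The remaining intron 5 regions were held by 1 list each. Stop cassette replicate 1 had a summit at 29635952, at the 0.867 percentile. Stop cassette replicate 2 had one at 29641902, at the 3.82 percentile, 616 bp from the middle of the region called in all lists. Both were among the weakest summits of their lists.

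**Figure D2:**
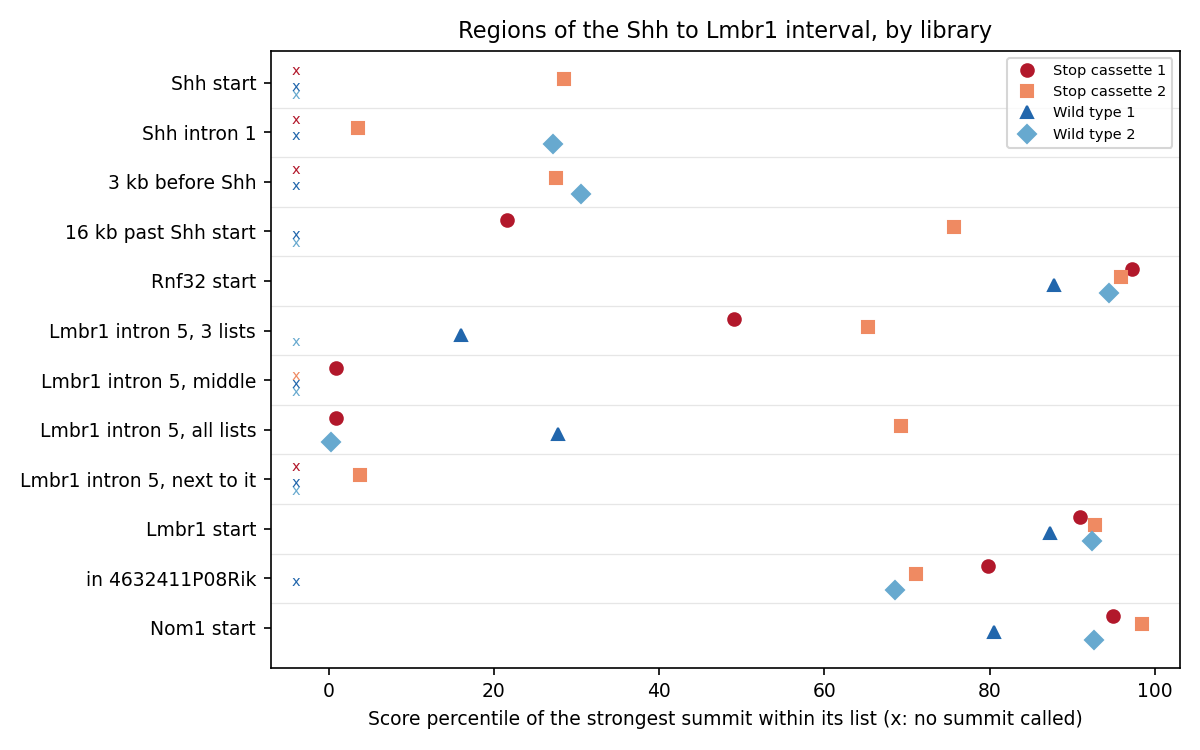
Score percentile within its list (horizontal axis) of the strongest summit in 12 regions of the interval (rows), 1 point per library, with a cross at the left where a library had no summit. The starts of Rnf32, Lmbr1 and Nom1 lie between the 80.5 and 98.4 percentiles in every library, whereas regions at Shh and in Lmbr1 intron 5 are lower, and of these the intron 5 region called in all lists is the one with a point for every library.

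Between Shh and the genes next to Lmbr1, hardly any summit was called. The longest stretch without a summit ran for 744 kb in stop cassette replicate 1, 719 kb in stop cassette replicate 2, 735 kb in wild-type replicate 1 and 486 kb in wild-type replicate 2. The shorter value came from a single summit at 29281809 in wild-type replicate 2, at the 20.7 percentile, 488 kb from the Shh start. Stretches at least as long made up 0.446%, 0.190%, 0.702% and 0.794% of all distances between neighbouring summits of the same lists, in that order. The median distance between neighbours was 3.18, 3.74, 8.57 and 6.23 kb. Unsequenced parts of the assembly count among the long stretches. The stretch of stop cassette replicate 1 began at 28777962, past the 3′ end of Shh, and so took in the whole gene. That of wild-type replicate 1 began at 28787269, inside Shh, and took in part of it. The gene 9530036O11Rik, 476 kb long, begins inside Shh and ends in this desert, and the short gene Gm10290 had no summit at its start in any list.

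**Figure D3:**
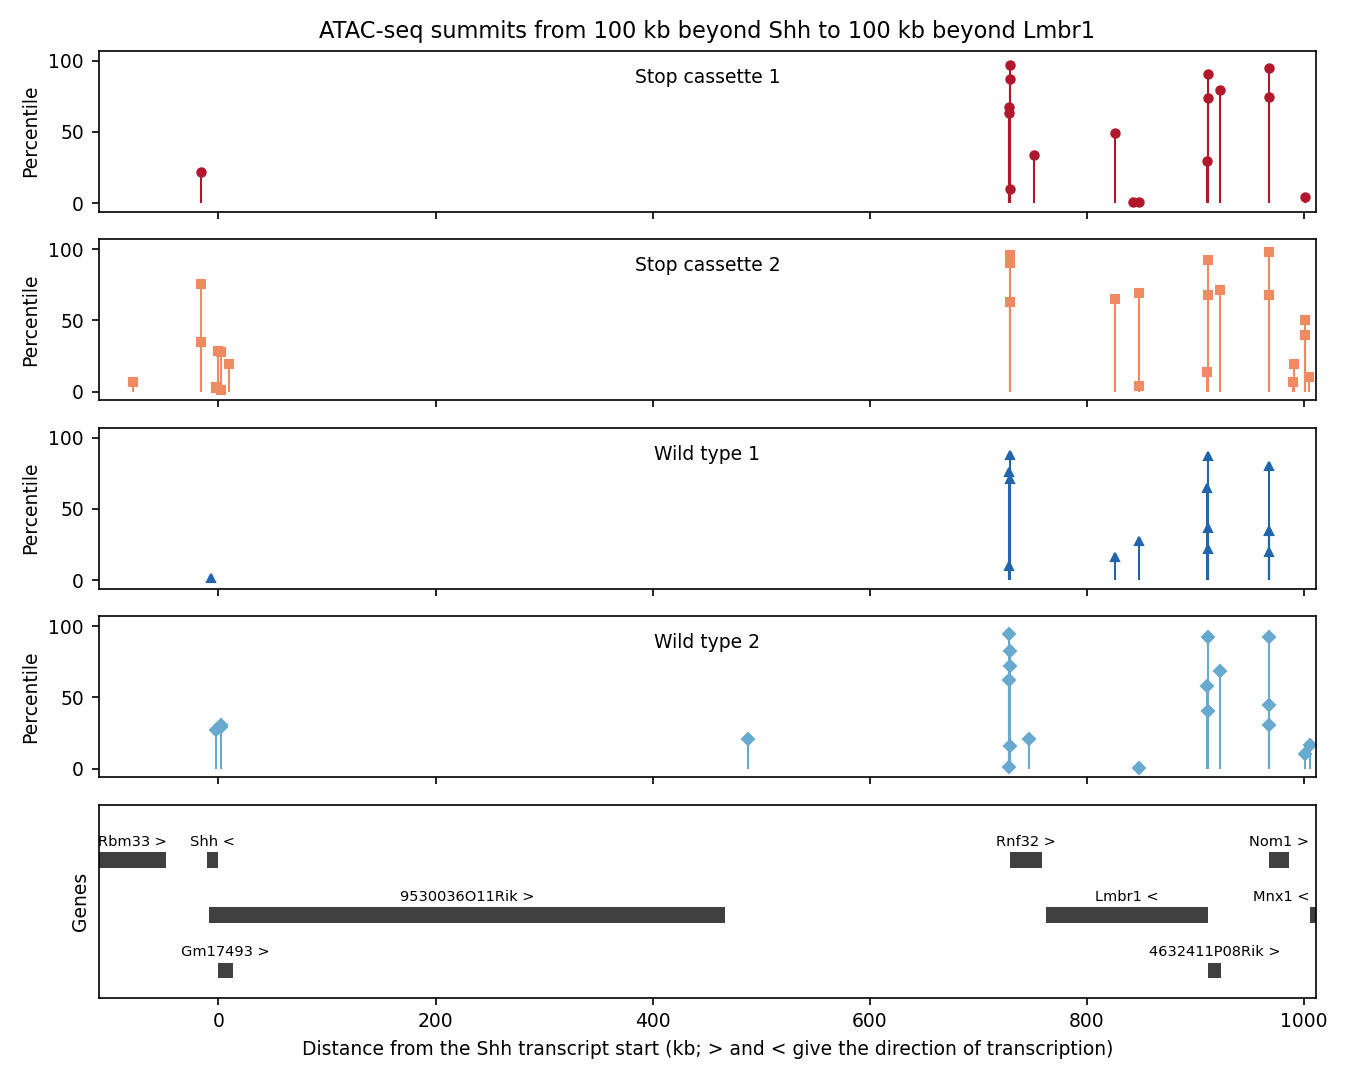
Score percentile of every summit (vertical axis, 1 panel per library) against its distance in kb from the Shh transcript start (horizontal axis), with the annotated genes as bars below. Summits gather around Shh and from Rnf32 to Nom1, and the stretch between them holds 1 summit, in wild type 2.

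The whole interval of 1.12 Mb held 17 and 26 summits in stop cassette replicates 1 and 2 and 15 and 21 in wild-type replicates 1 and 2. The counts overlapped between genotypes (means of 21.5 ± 6.36 against 18 ± 4.24, SD over 2 libraries; exact permutation test, p = 0.667). At equal list length the difference turned from 3.5 to -4 summits, with both wild-type counts above both stop cassette counts, and with scores above 5.83 it was 4, with the opposite order (exact permutation p = 0.33 each). The equal-length cut removes weak summits from the longer lists only, so list length enters its result by construction. As a share of the list, the interval held 0.0215% (95% Wilson interval 0.0134% to 0.0344%) and 0.0241% (0.0165% to 0.0353%) in the stop cassette libraries. In wild type it held 0.0290% (0.0176% to 0.0479%) and 0.0307% (0.0201% to 0.0469%). Both wild-type shares were above both stop cassette shares, with a difference of -0.00704 percentage points (exact permutation p = 0.33, the smallest that 2 against 2 libraries allow), and the 4 intervals, which cover counting error only, overlapped. The density was 15.2 and 23.2 summits per Mb in the stop cassette lists and 13.4 and 18.7 in the wild-type lists, or 50.9%, 57.1%, 68.8% and 72.7% of the genome's density in the same list.

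By class, the Lmbr1 start had 3, 3, 4 and 3 summits in stop cassette replicates 1 and 2 and wild-type replicates 1 and 2. The Lmbr1 introns had 3, 3, 2 and 1, and the Shh start 0, 1, 0 and 0. Summits at or inside other genes numbered 9, 12, 9 and 14 and include those inside Shh beyond 1 kb of its start, which 9530036O11Rik also covers. Intergenic summits numbered 2, 7, 0 and 3. The median percentile of the intronic summits was 0.867, 65.3, 21.9 and 0.341, against 36.8, 41.1, 31.7 and 36.9 for all intronic summits of the same lists beyond 1 kb of any start. These medians averaged 33.1 ± 45.5 over the stop cassette libraries and 11.1 ± 15.2 over the wild-type libraries (SD over 2 libraries; exact permutation test, p = 0.667).

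Of the 21 regions, 4 were held by all lists (19.0%), where 32% of all regions were. These were the starts of Rnf32, Lmbr1 and Nom1 and the intron 5 region. Rnf32, a RING finger gene next to Lmbr1, had start percentiles of 97.3 and 95.8 in the stop cassette lists against 87.7 and 94.4 in the wild-type lists. Nom1, a nucleolar protein gene on the other side, had 94.9 and 98.4 against 80.5 and 92.7. At these 2 starts both stop cassette values were above both wild-type values (exact permutation p = 0.33 each). This was so for 38.9% of all regions held by all lists, and the opposite order for 3.47%, beside 2 of 4 and 0 of 4 here. At equal list length the order held at Nom1 and not at Rnf32. All 8 differences tested had p-values of 0.667 after Benjamini-Hochberg adjustment. They include the median percentile of all summits of the interval. It was 63.6 and 37.2 in stop cassette replicates 1 and 2 and 34.5 and 30.7 in wild-type replicates 1 and 2. The difference of 17.8 percentile points had an exact permutation p of 0.33, before adjustment.

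Further places near Lmbr1 were named by rank. A region inside 4632411P08Rik (29715823 to 29716399), 10834 bp from its start, was held at the 79.7 and 71.1 percentiles in stop cassette replicates 1 and 2 and at the 68.6 percentile in wild-type replicate 2. Wild-type replicate 1, the shortest list, had no summit there. An intergenic region from 29794250 to 29794984 was held by the same 3 lists at the 4.07, 50.3 and 10.0 percentiles. The pseudogene Gm7420 had a summit at its start in stop cassette replicate 1 alone, at the 33.5 percentile, and the miRNA gene AC171500.1 in Lmbr1 intron 4 had none.

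The wider pathway was read from lists of genes around the same signal, and a start was called or not by the same rule of 1 kb. All 6 genes of reception were called in all 4 lists: the receptor gene Ptch1, Smo, which passes the signal on, the antagonist Hhip, and the co-receptors Boc, Cdon and Gas1. Of all protein-coding genes, 57.6% were called in all lists. Cdon had the highest mean of these, at the 97.0, 96.8, 94.2 and 96.0 percentiles, although Smo was higher in wild-type replicate 1. Of 6 genes of the transcriptional response, 5 were called in all lists: the effectors Gli1, Gli2 and Gli3, their inhibitor Sufu, and Spop, which directs Gli proteins to degradation. Kif7, a kinesin of the cilium tip, had no called start in any list, as had 34.4% of protein-coding genes. Among these effectors Gli1 was the lowest, at the 14.2, 62.9, 20.8 and 31.9 percentiles.

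The 3 ligand genes were each called in a single list, as were 2.48% of protein-coding genes. Ihh was called in wild-type replicate 1 alone, at the 36.6 percentile, and Dhh in stop cassette replicate 2 alone, at the 13.7 percentile, as Shh was. Hhat, which attaches palmitate to the ligand, and Scube2, which helps to release it, were called in all lists. The gene Disp1 was not matched in the annotation.

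Of 21 genes that encode regulators of Shh in the limb, 16 were called in all lists, against 57.6% of protein-coding genes. Ets1 and Gabpa, factors of the ETS family that bind the ZRS, had mean percentiles of 99.4 and 97.5, and Etv5, an ETS factor that limits Shh in the anterior limb, one of 96.2. Hand2, which activates Shh in posterior cells, stood at 70.6 and 78.0 in the stop cassette lists against 51.4 and 85.7 in the wild-type lists. Hoxd13 stood at 54.8, 59.5, 56.6 and 57.9. Fgf4, a signal from the apical ridge that maintains Shh, had no called start, and Fgf8 had one in stop cassette replicate 2 alone, at the 30.1 percentile. In all 4 lists together, 29 of 38 matched genes were called, or 76.3%, beside 57.6% of all protein-coding genes, a description of genes chosen for their role in the limb.

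**Figure D4:**
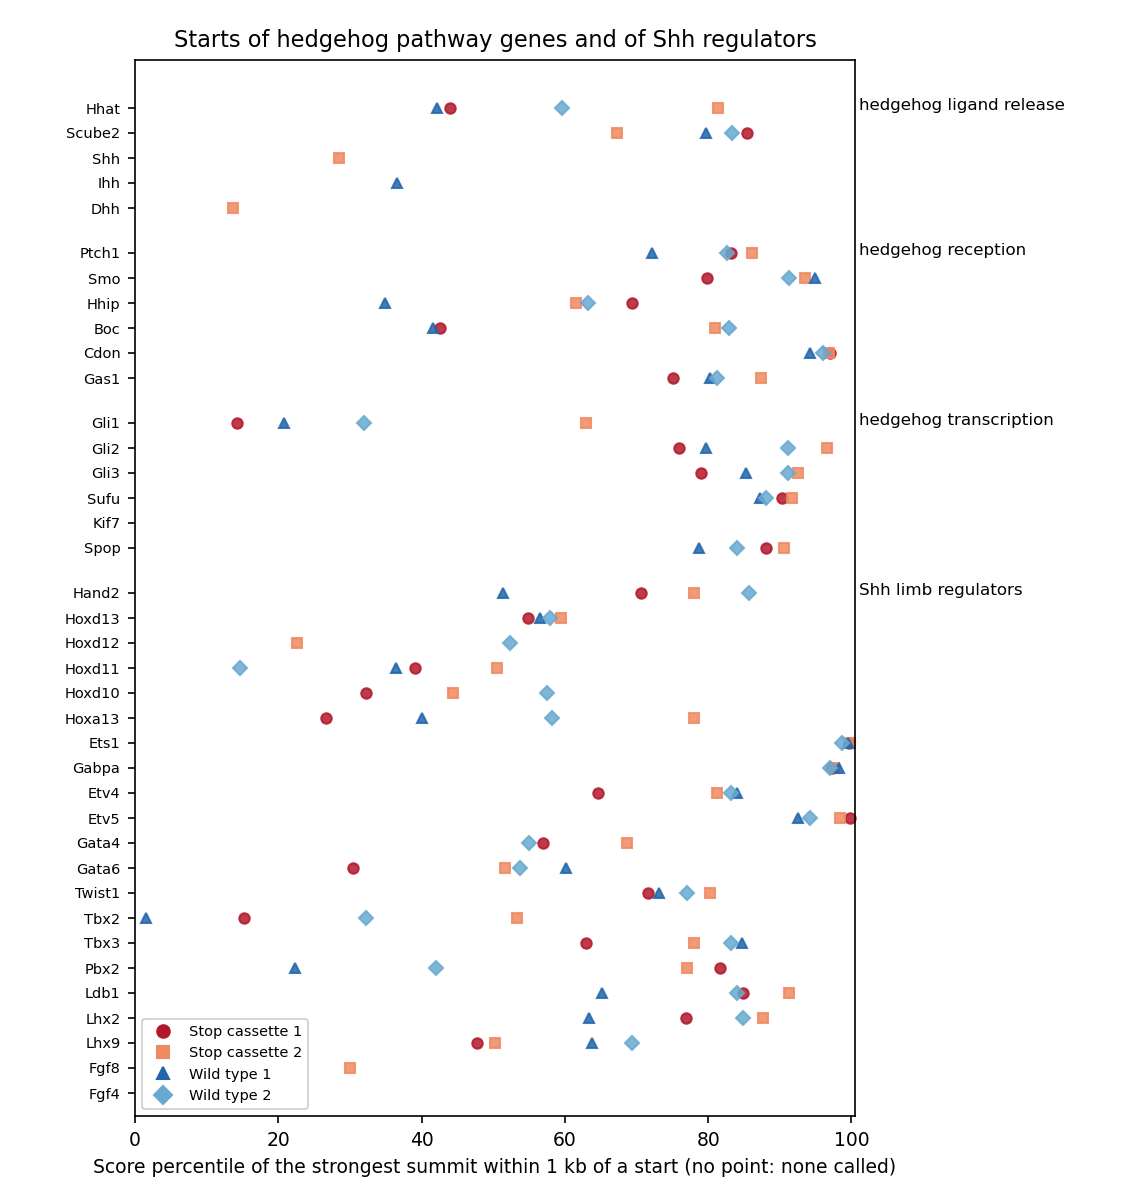
Score percentile within its list (horizontal axis) of the strongest summit within 1 kb of a start, for 38 genes of hedgehog signalling and of Shh regulation (rows, grouped by role), 1 point per library. The ligand genes Shh, Ihh and Dhh and the ridge signal Fgf8 have 1 point each, whereas the reception genes have 4 points each.

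Starts of genes of other cell types were called as well. Of 4 matched blood genes, 3 were called in both stop cassette lists and in wild-type replicate 1, and 2 in wild-type replicate 2. The shares over all protein-coding genes were 61.7% and 64.6% in stop cassette replicates 1 and 2 and 59.2% and 61.7% in wild-type replicates 1 and 2. Hbb-b1, an adult beta globin gene, stood at the 92.2 (stop cassette replicate 1), 86.7 (replicate 2), 72.8 (wild-type replicate 1) and 20.7 (replicate 2) percentiles. Klf1, which had no summit in wild-type replicate 2, and Gata1 were also higher in both stop cassette lists, while Ptprc was called in none. Of all regions held by all lists, 38.9% had both stop cassette percentiles above both wild-type ones, and 3.47% had the opposite order. The order at the blood genes was not tested. Starts called in all lists numbered 3 of 8 for surface ectoderm, 1 of 5 for endothelium and 2 of 4 matched neural genes, none above the 57.6% of all protein-coding genes. Of 3 genes of the notochord and floor plate, which also express Shh in the embryo, 1, 3, 0 and 1 were called in stop cassette replicates 1 and 2 and wild-type replicates 1 and 2. The shares over all protein-coding genes given for the blood genes apply to these counts too. Foxa2 was the one called in wild-type replicate 2, and stop cassette replicate 2, the list with the called Shh start, was the one with T and Noto. In that list alone, the longest, 369 genes (1.66%) had a called start. The part of these cells in the values at Shh was not tested.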

How the data were processed

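ATAC-seq peak lists of 2 stop cassette and 2 wild-type libraries were used, grouped by the genotype in the labels, with replicate numbers from the titles. The authors deposited 1 list per library, each row a summit of 1 bp on mm9 with a value that behaves as −log10 of a q-value, since the lowest value of each list lies just above 1.301, −log10 of 0.05. Duplicate and mitochondrial reads were removed and a mapping quality of 30 was used, per the peak names in the files. Bowtie2 2.2.6 and Picard are named, per the submitters' processing notes. The peak caller, its settings and any shift for the way the transposase binds are not given in the sources used here. The peak names give the wild-type libraries 1 shared replicate number with sub-numbers, so p-values may measure technical spread.

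Scores were ranked within each list, with tied scores at their mean rank. Summits were extended by 250 bp on each side and merged where they overlapped by at least 1 bp. The design had foreseen peaks with a width. A start counted as called with a summit at most 1 kb from any of its annotated positions (GENCODE M1, NCBIM37, the same build; 0 summits lay beyond a chromosome end). Group means were compared with exact two-sided permutation tests over 6 assignments (smallest p 0.33). Named regions were those at both starts and inside Lmbr1, any genotype-specific region, and the 5 others with the highest mean percentile; regions in and before Shh were added after their values were seen. The members and gene lists were chosen with earlier results of these data known. Motifs came from general knowledge, 5 in all: GGAAG for ETS factors, CATNTG for the E-box, CAATAAA for Hox13 factors, AGATAA for GATA factors, and the CTCF core motif, whose form was changed once after a first search. They were searched on both strands. Alternatives were equal list length (51701 summits), scores above 5.83, other flanks, extensions, overlaps and start distances, ranks within chromosome 5, each library left out, and replicate numbers as pairs. In a simulation with 4746 regions, merging found all 200 that had been made specific to the stop cassette and all 200 made specific to wild type. How the simulated summits were spaced is not given here. This result therefore cannot speak for crowded summits, such as the 18 within 1607 bp at the Rnf32 start. Python 3.11.15, pandas 2.3.3 and scipy 1.17.1 were used. Some items, among them genes of the pathway lists, are not reported here, and the lists' counts leave them out.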

Additional observations from a re-analysis of the deposited data

How the results depend on the processing

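The lists carry no read counts, and depth limits every absence: a summit not called is not a closed site. No test here could pass a threshold of 0.05. Of 167 values under alternatives, 130 kept their direction or stayed within 1.5 times a count or within the spread, 30 moved and 7 changed sign. Some of the 130 could not change, so the tally is no measure of robustness. Pairing leaves a mean difference as it is, and other flanks do not touch values inside Lmbr1. The intron 5 region was read at fixed borders under every extension and overlap. At equal list length, the difference in summits of the interval was -4 (from 3.5) and that at the Lmbr1 start -3.10. The intron 5 region was then held by 2 lists and the Shh start called in 0, and 10 regions remained, 0 of them specific to the stop cassette. The mean per list was 1.25 Lmbr1 intronic and 0.25 intergenic summits. No difference for the intron 5 region could then be given, nor any percentile for the Shh start. The equal-length cut takes summits from the longer lists only, and by construction it lowers the percentiles of those that remain there.

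With scores above 5.83, 8 regions remained, the intron 5 region was held by 1 list and the Shh start called in 0. The pathway starts called in all lists then numbered 19 (from 29). The means per list were 2 (Lmbr1 start), 0.75 (Lmbr1 intron), 5.75 (other genes) and 0.5 (intergenic). With a flank of 50 kb the mean of intergenic summits was 1. With 200 kb it was 6.5, that of other genes 18.5, and 32 regions were found, 9 in all lists and 3 specific to the stop cassette. When summits were extended by 100 bp, 2 regions were specific to the stop cassette. Ranked within chromosome 5, the Shh start stood at the 29.1 percentile.

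Leaving out each library in turn, the difference in summits ranged from -1 to 8 and at the Lmbr1 start from -0.540 (without wild-type replicate 1) to 4.54. The difference for the intron 5 region ranged from -13.2 to 55.2, for the Lmbr1 intronic median from -10.2 to 54.1 and for the intergenic median from -3.58 to 18.3. The lowest of each of these 3, and of the summits, came without stop cassette replicate 2. Stop cassette-specific regions numbered 2 to 6 and wild type-specific ones 0 to 2, the Shh start was called in 0 to 1 lists, and the mean of intergenic summits was 1.67 to 4. With a library left out, a region must be held by, or missing from, fewer lists to count as specific. That looser rule tends to raise both counts of specific regions by construction. With replicate numbers as pairs (replicate block), the differences were the same by construction, at 3.5 summits, -0.00704 percentage points, 21.9 and 21.0 percentile points in intron 5 and 2.0 at the Lmbr1 start. Their exact sign-flip p-values were 0.5 to 1 (smallest possible 0.5). The labels do not say that a number marks a shared litter or day. Deviations of same-numbered libraries correlated at r = 0.181 across 23894 regions, which are not independent replicates.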

Other observations

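The genes at the edges of the interval had called starts in every list although both starts lie outside it. Mnx1, a homeobox gene of motor neurons, starts at 29805059, and its start stood at the 30.5 and 66.2 percentiles in stop cassette replicates 1 and 2 and at 64.4 and 69.4 in wild-type replicates 1 and 2. The summits nearest to the right edge lay 222 to 1053 bp beyond it, so a slightly longer flank would have added them. Rbm33, on the far side of Shh, stood at 84.4 and 95.1 in the stop cassette lists and at 91.5 and 92.8 in the wild-type lists.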
